A study of Mus musculus with 6 samples.

Results

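The nuclear genes for subunits of respiratory complexes II, III and IV, of cytochrome c and of the mitochondrial ATP synthase (complex V) were followed in pituitaries with and without the histone demethylase Jmjd2a, now named Kdm4a. The set was a fixed list of 39 genes, taken by name and not by measured value: 4 of complex II, 9 of complex III, Cycs, 10 of complex IV and 15 of the ATP synthase. All 39 were found on the array through the RefSeq accessions of its probes, by 62 of the 55681 probes, and all 39 were among the 26887 genes and unnamed features tested. Of these 62 probes, 61 were well above background on all 6 arrays, and the third probe of Cycs was not above it on any. For genes with several probes, 16 in all, the brightest was used.

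RNA came from whole pituitaries of 3 Jmjd2a-/- females (KO) and 3 Jmjd2a+/+ littermates (WT), with 1 animal per array. All were virgin C57BL6 mice aged 8 weeks, and in all of them the cycle had been activated by soiled bedding of a stud male 24 h before the glands were taken. The labels do not name the allele, the deleted part of the gene or the cells in which it was lost, so no cell type can be given as the source of a difference. RIN values, a measure of RNA integrity, were at least 9.9. In RNA from a whole gland, fewer cells of a type and less RNA per cell cannot be told apart.

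Complex II, succinate dehydrogenase, passes electrons from succinate to ubiquinone and is also an enzyme of the citric acid cycle. Complex III passes them on to cytochrome c, complex IV hands them from cytochrome c to oxygen, and complexes III and IV pump protons that drive the ATP synthase. All subunits of complex II are nuclear genes, while complexes III and IV and the ATP synthase combine nuclear subunits with a few from the mitochondrial genome, which matched no probe here and were not analysed. Hormone-secreting cells of the pituitary use the ATP made this way for hormone synthesis and exocytosis.

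Nuclear respiratory genes are known to share promoter elements for NRF1, the ETS factor GABP, YY1 and the oestrogen-related receptors (ERR). Promoter windows from 250 bases before to 50 bases after the start were at hand in RefSeq (GRCm38.p6) for 31 of the 39 genes, as 34 windows. Both strands were searched for the NRF1 consensus, for CCGGAAG (ETS/GABP), for AAGATGG (YY1) and for TCAAGGTCA (ERR), each as an exact match. The NRF1 motif was present for 10 of the 31 genes (32.3%), against 7.17% of the 17492 protein-coding genes with a window of this length. The ETS letters were found for 12 genes (38.7%, against 12.9%), the YY1 letters for 4 (12.9%, against 7.18%) and the ERR letters for 2 (6.45%, against 0.377%). A match describes the letters of the window and is not a binding site. The windows below are those of 3 complex II genes, whose values differed most within a complex, and of the ATP synthase gene with the smallest p. Capitals mark the matches in the 4 windows, none of which overlap: 3 of NRF1 in Sdha, 1 of ETS in Sdhb, 1 each of NRF1, ETS and ERR in Sdhd, and 1 each of NRF1 and ETS in Atp5k.
Sdha (chr13:74350191-74350490, minus strand): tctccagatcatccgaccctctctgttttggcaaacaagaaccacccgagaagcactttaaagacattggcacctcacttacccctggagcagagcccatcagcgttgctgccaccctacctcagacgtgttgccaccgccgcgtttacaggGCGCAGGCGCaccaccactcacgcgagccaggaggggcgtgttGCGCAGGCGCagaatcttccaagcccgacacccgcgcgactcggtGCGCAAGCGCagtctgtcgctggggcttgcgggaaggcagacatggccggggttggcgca
Sdhb (chr4:140961021-140961320, plus strand): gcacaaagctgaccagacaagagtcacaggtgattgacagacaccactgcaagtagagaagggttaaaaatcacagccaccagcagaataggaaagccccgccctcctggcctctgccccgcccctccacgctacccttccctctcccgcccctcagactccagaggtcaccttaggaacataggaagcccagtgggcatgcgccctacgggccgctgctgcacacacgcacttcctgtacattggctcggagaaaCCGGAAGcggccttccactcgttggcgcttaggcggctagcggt
Sdhd (chr9:50603800-50604099, minus strand): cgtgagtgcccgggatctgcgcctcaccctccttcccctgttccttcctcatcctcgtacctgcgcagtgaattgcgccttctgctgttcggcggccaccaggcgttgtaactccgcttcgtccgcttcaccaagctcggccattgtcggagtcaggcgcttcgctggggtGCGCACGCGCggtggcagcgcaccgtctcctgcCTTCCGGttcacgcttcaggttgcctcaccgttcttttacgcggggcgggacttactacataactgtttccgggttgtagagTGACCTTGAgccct
Atp5k (chr5:108434350-108434649, minus strand): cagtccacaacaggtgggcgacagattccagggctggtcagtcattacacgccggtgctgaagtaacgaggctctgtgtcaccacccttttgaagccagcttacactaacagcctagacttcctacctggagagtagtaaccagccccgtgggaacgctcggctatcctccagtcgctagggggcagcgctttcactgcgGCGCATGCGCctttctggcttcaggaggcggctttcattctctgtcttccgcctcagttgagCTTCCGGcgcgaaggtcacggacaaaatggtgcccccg

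Levels are given throughout as log2 intensity relative to the 75th percentile of the same array, and differences as log2 fold changes, KO over WT, each with its standard error from limma. Each group had 3 arrays. Between 34634 and 40567 probes per array lay well above background, and no spot of the 39 genes was saturated or marked as an outlier. The brighter probe of Kdm4a read 1.96 with an SD of 0.15 over the 3 WT arrays and 1.34 with an SD of 0.13 over the 3 KO arrays, a log2 fold change of -0.62 ± 0.14 (adjusted p = 0.237), and its other probe was above background on 1 array of each group. Since the deleted part is not given, this signal does not check the labels. WT replicate 3 stood apart from the other arrays in markers of neutrophils, of cell division and of Schwann cells. The summed linear level of 8 neutrophil markers was 4.80, 6.97 and 17.4 on WT replicates 1, 2 and 3, and 3.69 to 3.85 on the KO arrays. For 10 cell division genes it was 3.83, 4.84 and 15.3 in WT and 1.44 to 2.18 in KO, with Aurkb not above background on any array, and for 7 Schwann cell genes 12.1, 14.4 and 20.5 in WT and 13.2 to 14.1 in KO. Without WT replicate 3, the 8 cell division genes tested still all had log2 fold changes below 0 (median -1.09). By limma, 6 of them then had an unadjusted p under 0.05 (9.14% of features), and 0 were called. The 6 neutrophil genes tested were also all below 0 without that array (median -0.50), and 2 of 7 Schwann cell genes were (median 0.04). The sums of the other marker lists overlapped between groups: 7 pituitary hormone genes gave 1888 to 3162 in WT and 1972 to 2233 in KO, 5 posterior lobe genes 12.4 to 16.7 and 12.4 to 14.4, 4 erythroid genes 289 to 406 and 162.5 to 511, 6 endothelial genes 26.7 to 33.4 and 27.6 to 30.5, 6 macrophage genes 21.6 to 27.6 and 21.9 to 25.2, and 6 muscle genes 0.533 to 0.623 and 0.518 to 0.760. The erythroid sum was highest on KO replicate 1 and lowest on the other KO arrays. The muscle gene Mylpf was not above background on any array, whereas all 7 hormone genes were above it on all 6.

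The comparison of KO with WT asked whether transcripts of the respiratory chain differ in the pituitary without this demethylase. Nearly all subunit genes read slightly lower in KO, and none passed the test. Of the 39 genes, 38 had a log2 fold change below 0, as did 61% of all features, and the exception was Sdha. The median over the 39 was -0.27, against -0.08 over all features, and 38 of them lay below that median. By limma with Benjamini-Hochberg adjustment over all features, 0 of the 39 were called at an adjusted p under 0.05, as were 0 of the 26887 features (0%), and the adjusted p of the 39 ran from 0.346 to 0.871. At an unadjusted p under 0.05, 7 genes were lower (background 8.92%) and 0 were higher (background 3.89%).

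The level of every KO array was below that of every WT array for 22 of the 39 genes, against 13.5% of all features, and above it for 0 genes (background 7.14%). The count was 14 with normexp (background 13.2%), 10 with quantile normalization (9.08%), 10 in the authors' table (10.5%) and 0 with median centring (3.77%). With the 75th percentile the 22 were 13 of 15 genes of the ATP synthase, 5 of 10 of complex IV, 2 of 9 of complex III, 2 of 4 of complex II and not Cycs. The 39 genes are bright, and bright features as a class also read lower in KO: over the 4427 features at least as bright as the dimmest of the 39, the median log2 fold change was -0.12, and 830 had every KO array below every WT array. The median was similar from complex to complex, at -0.24 for complex II (range -0.39 to 0.05), -0.25 for complex III (-0.42 to -0.15), -0.27 for complex IV (-0.44 to -0.15) and -0.29 for the ATP synthase (-0.44 to -0.08). No test of a difference between complexes was made.

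**Figure D1:**
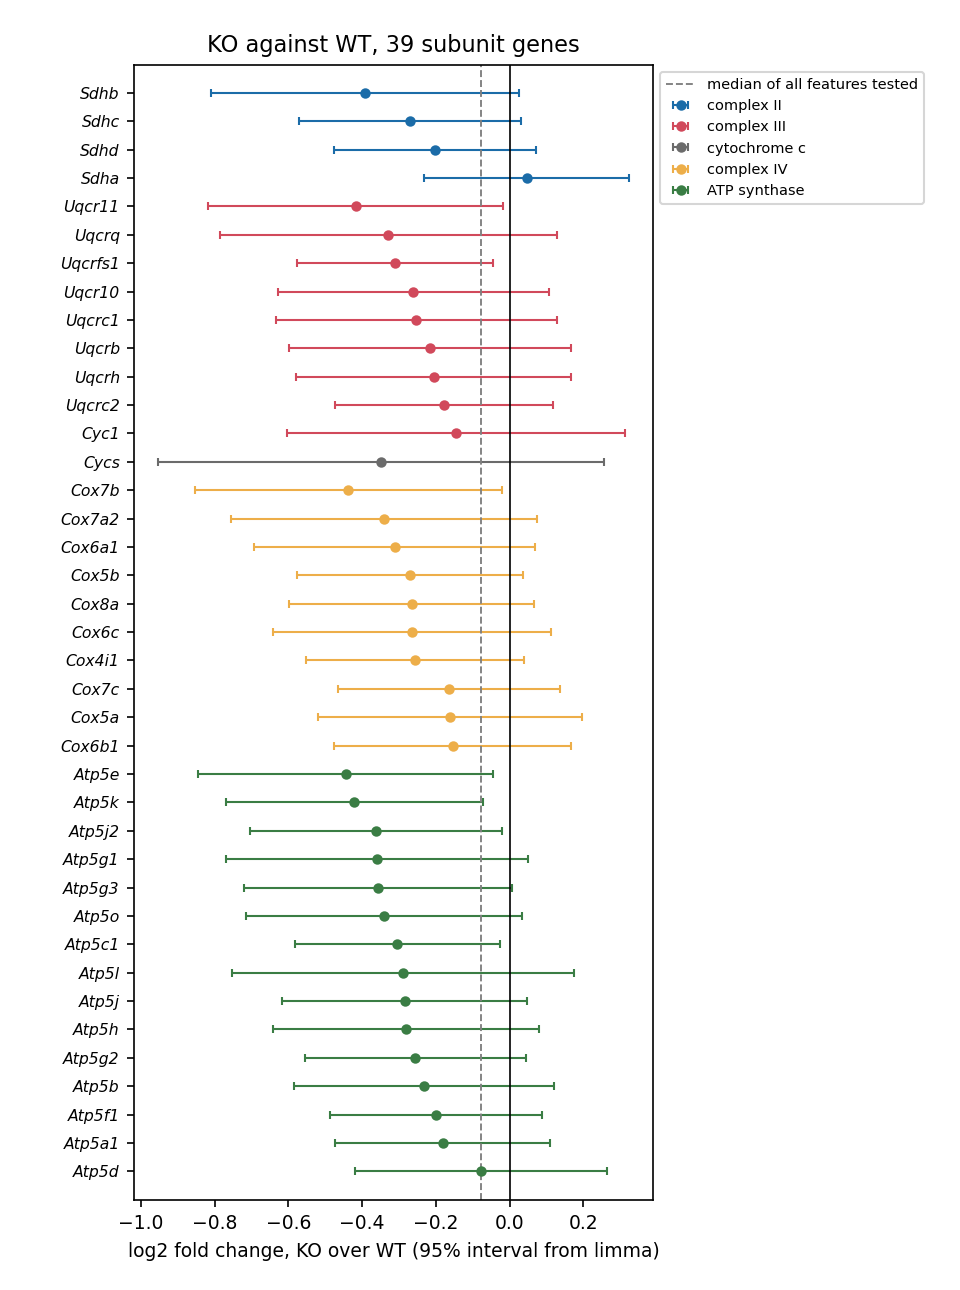
Log2 fold change, KO over WT, of each of the 39 subunit genes (points, with the 95% interval from limma, n = 3 arrays per group), coloured by complex and ordered by value within each. All points but that of Sdha (0.05) lie below 0 (solid line), and the dashed line marks the median of all features tested (-0.08).

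In complex II the values of the iron-sulphur subunit and of both membrane anchors were below 0 and that of the flavoprotein subunit was not, and none passed the test. Sdhb, which carries the iron-sulphur clusters, read 5.48, 5.23 and 5.82 on WT replicates 1, 2 and 3 and 5.02, 5.24 and 5.08 on the KO arrays. KO replicate 2 lay just above WT replicate 2, so the groups overlapped. The log2 fold change was -0.39 ± 0.18 (adjusted p = 0.401), which puts KO at 76.2% of WT with a 95% interval of 57.1% to 102%. Its second probe gave -0.30 ± 0.15.

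Sdhc and Sdhd encode the anchors that hold the enzyme in the inner membrane and take part in binding ubiquinone. Sdhc levels were 3.61, 3.78 and 3.84 in WT and 3.36, 3.52 and 3.55 in KO. Sdhd gave 4.36, 4.36 and 4.39 in WT, the tightest WT values of any of the 39 genes (SD 0.0144), and 4.05, 4.23 and 4.23 in KO. The groups did not overlap for either gene, with log2 fold changes of -0.27 ± 0.13 for Sdhc (adjusted p = 0.416) and -0.20 ± 0.12 for Sdhd (adjusted p = 0.481). The second probe of Sdhc gave -0.29 ± 0.13.

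Sdha encodes the flavoprotein subunit that oxidises succinate, and it was the only gene of the 39 with a positive value. Its levels were 4.71, 4.80 and 4.83 in WT and 4.76, 4.93 and 4.79 in KO, with the highest on KO replicate 2 and the lowest on WT replicate 1. The log2 fold change was 0.05 ± 0.12 (adjusted p = 0.871), and the 95% interval of KO relative to WT, 85.1% to 125%, held both a lower and a higher level. Without KO replicate 2 the value was -0.0062.

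Taking the difference from Sdha on the same array removes the scaling of the array, and these differences were compared only between arrays. For Sdhb the difference was 0.77, 0.43 and 0.99 on the WT arrays and 0.27, 0.31 and 0.29 on the KO arrays. For Sdhc it was -1.10, -1.01 and -0.99 in WT and -1.40, -1.42 and -1.24 in KO, and for Sdhd -0.34, -0.44 and -0.45 in WT and -0.70, -0.70 and -0.56 in KO. All 3 subunits thus stood lower relative to Sdha on every KO array than on any WT array, by -0.44, -0.32 and -0.25 on average. The groups were also separate for each of the 3 genes with normexp background correction, quantile normalization, the authors' value table and the mean of a gene's probes. These settings used the same reference, and the share of all features separated from Sdha in this way is not given here. Sdha was taken as the point of reference after its value had been seen, so neither the separation nor its p-value supports anything here. The exact two-sided permutation p was 0.1 for each of the 3 genes (0.1 after adjustment over them), the smallest that 3 arrays against 3 allow.

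**Figure D2:**
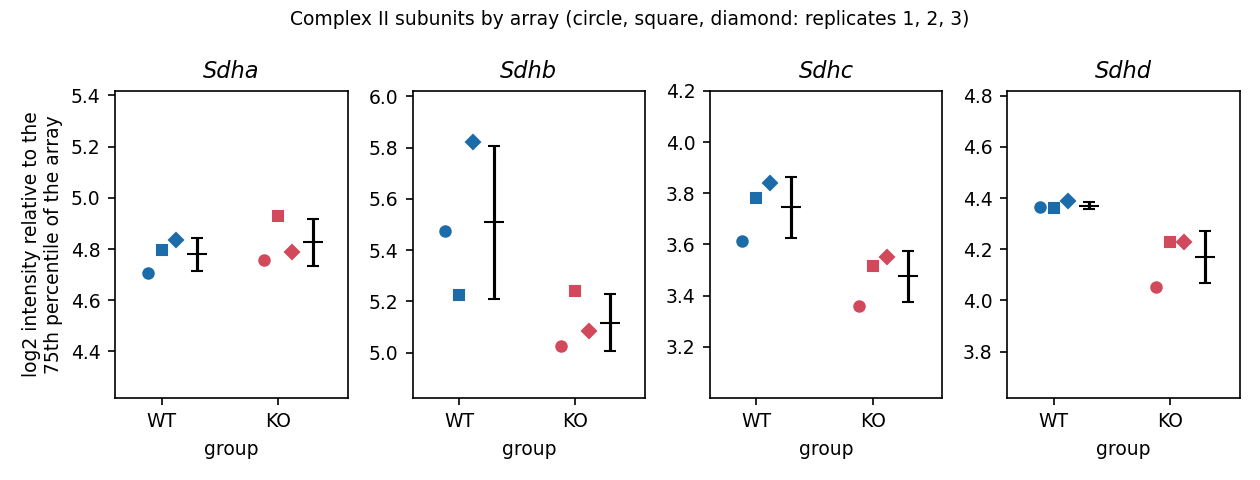
Levels of the 4 complex II genes by array, as log2 intensity relative to the 75th percentile of the array, each panel spanning the same height, with the mean and SD of each group (n = 3) as black bars. Points of KO lie below those of WT for Sdhc and Sdhd, those of Sdhb overlap through WT replicate 2 and KO replicate 2, and those of Sdha are mixed.

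All 9 genes of complex III had values below 0. Uqcrfs1 encodes the Rieske iron-sulphur protein, which takes electrons from ubiquinol, and had the smallest p of the complex. It read 4.87, 4.80 and 4.96 in WT and 4.55, 4.59 and 4.57 in KO, with no overlap and little spread among the KO arrays (SD 0.0192). The log2 fold change was -0.31 ± 0.11 (unadjusted p = 0.0285, adjusted p = 0.356), or 80.6% of WT. Without WT replicate 3 it was -0.27 ± 0.12.

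Uqcr11 and Uqcrq, which encode small accessory subunits, had the lowest values of complex III but overlapped between groups. Uqcr11 levels were 6.33, 6.17 and 6.63 in WT and 5.84, 6.17 and 5.86 in KO, where KO replicate 2 lay just above WT replicate 2. Its log2 fold change was -0.42 ± 0.17 (unadjusted p = 0.0430, adjusted p = 0.378). Uqcrq read 5.95, 5.91 and 6.54 in WT and 5.72, 5.92 and 5.78 in KO. Here WT replicate 3 alone was far above the rest, and the value of -0.33 ± 0.19 (adjusted p = 0.485) went to -0.13 ± 0.13 without that array.

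Cyc1, the haem-bearing cytochrome c1, stood closest to 0 in complex III at -0.15 ± 0.19 (adjusted p = 0.738). It read 3.33, 3.92 and 3.80 in WT and 3.34, 3.55 and 3.72 in KO, with the lowest level on a WT array. The other accessory and core subunits gave -0.26 for Uqcr10, -0.25 for Uqcrc1, -0.22 for Uqcrb, -0.21 for Uqcrh and -0.18 for Uqcrc2, and of these only Uqcr10 had groups that did not overlap. The 3 probes of Uqcrb gave -0.22, -0.22 and -0.17.

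Cycs, the soluble carrier between complexes III and IV, had the widest spread of the 39 genes. Its levels were 3.87, 4.001 and 4.78 in WT and 3.66, 4.05 and 3.89 in KO. WT replicate 3 was the highest by far, and the other WT arrays lay among the KO arrays. The log2 fold change was -0.35 ± 0.26 (adjusted p = 0.559) with all arrays and -0.07 ± 0.16 without WT replicate 3, and the second probe gave -0.34 ± 0.24.

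All 10 genes of complex IV had values below 0 as well. Cox7b, a small subunit of the membrane part, had the smallest p, with levels of 5.11, 5.10 and 5.57 in WT and 4.71, 5.01 and 4.75 in KO. The groups did not overlap, and the log2 fold change was -0.44 ± 0.18 (unadjusted p = 0.0419, adjusted p = 0.376), or 73.9% of WT. Without WT replicate 3 it was -0.28 ± 0.15.

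Cox5b, which binds zinc on the matrix side, and Cox4i1, the ubiquitous form of the regulatory subunit 4, came next. Cox5b read 4.94, 5.11 and 5.20 in WT and 4.70, 4.85 and 4.89 in KO, a log2 fold change of -0.27 ± 0.13 (adjusted p = 0.422). Cox4i1 read 7.01, 6.80 and 6.95 in WT and 6.56, 6.76 and 6.68 in KO, a log2 fold change of -0.26 ± 0.12 (adjusted p = 0.426). Neither overlapped between groups, and both stayed near these values without WT replicate 3, at -0.21 and -0.24. Cox4i1 was among the 3 genes whose highest array was WT replicate 1, and quantile normalization turned its value to 0.019.

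Cox6b1, which faces the intermembrane space, was closest to 0 among the complex IV genes. Its levels were 2.88, 3.05 and 3.15 in WT and 2.73, 2.90 and 2.99 in KO, overlapping, with a log2 fold change of -0.15 ± 0.14 (adjusted p = 0.617). The remaining 6 complex IV genes ran from -0.34 for Cox7a2 through -0.31 for Cox6a1, -0.27 for both Cox8a and Cox6c and -0.16 for Cox7c to -0.16 for Cox5a. Among these, Cox7a2 and Cox7c did not overlap between groups.

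The ATP synthase held 4 of the 7 genes with an unadjusted p under 0.05, and its 15 genes were spread over all parts of the enzyme. Atp5k encodes the small membrane subunit e, found where the enzyme forms dimers, and had the smallest p of all 39. It read 5.54, 5.47 and 5.85 in WT and 5.11, 5.32 and 5.16 in KO, with no overlap. The log2 fold change was -0.42 ± 0.15 (unadjusted p = 0.0244, adjusted p = 0.346), or 74.7% of WT with a 95% interval of 58.7% to 95.1%. The membrane subunits f and g, Atp5j2 and Atp5l, gave -0.36 (unadjusted p = 0.0410) and -0.29. Atp5l overlapped between groups because WT replicate 2, at 6.22, was the lowest of its 6 values, and its 5 probes gave -0.23 to -0.29.

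Among the 5 subunits of the catalytic head F1, values ran from -0.44 to -0.08. Atp5e, the small subunit epsilon of the central stalk, read 7.45, 7.16 and 7.67 in WT and 6.90, 7.16 and 6.89 in KO. KO replicate 2 lay 0.0011 below WT replicate 2, so the groups were separated by almost nothing. The log2 fold change was -0.44 ± 0.17 (unadjusted p = 0.0337, adjusted p = 0.363), the lowest value of the 39. Atp5c1, the gamma subunit that turns inside the head, read 5.91, 5.79 and 5.95 in WT and 5.51, 5.66 and 5.57 in KO. Its log2 fold change was -0.30 ± 0.12 (unadjusted p = 0.0364, adjusted p = 0.369) and -0.27 ± 0.13 without WT replicate 3.

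The catalytic subunit beta, Atp5b, and its partner alpha, Atp5a1, had smaller values of -0.23 ± 0.15 and -0.18 ± 0.12. Atp5d, the delta subunit of the central stalk, was closest to 0 in the enzyme, at -0.08 ± 0.14 (adjusted p = 0.815). It read 4.30, 4.55 and 4.68 in WT and 4.31, 4.51 and 4.48 in KO, so that the lowest and the highest level were both on WT arrays. Its value was 0.0053 without WT replicate 3, and positive also with normexp (0.0033), quantile normalization (0.037), median centring (0.084) and in the authors' table (0.050).

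The c ring, the rotor through which protons pass, is built from a single mature protein encoded by 3 genes, Atp5g1, Atp5g2 and Atp5g3. Atp5g1 read 6.61, 6.69 and 7.17 in WT and 6.41, 6.51 and 6.48 in KO. Atp5g2 read 7.66, 7.43 and 7.66 in WT and 7.24, 7.41 and 7.33 in KO, and Atp5g3 6.28, 6.04 and 6.49 in WT and 5.84, 6.04 and 5.86 in KO. All 3 lacked overlap, though for Atp5g3 KO replicate 2 and WT replicate 2 were only 0.00039 apart. The log2 fold changes were -0.36 ± 0.17, -0.26 ± 0.13 and -0.36 ± 0.15 in that order (adjusted p = 0.423, 0.430 and 0.390). Without WT replicate 3 they were -0.18, -0.22 and -0.25, so Atp5g1 moved most. The 4 genes of the peripheral stalk, Atp5o, Atp5j, Atp5h and Atp5f1, gave -0.34, -0.28, -0.28 and -0.20, none with overlap between groups.

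Seen by array, most of the 39 genes were high on WT replicate 3 and low on KO replicate 1. WT replicate 3 was the highest array for 34 of the 39, against 19.5% of all features. Among the 4427 features at least as bright as the dimmest of the 39, it was the highest for 42%. KO replicate 1 was the lowest array for 30 of the 39, against 17.6% of all features and 37.1% of those 4427. The median deviation of the 39 from their own means was 0.06, 0.01 and 0.34 on WT replicates 1, 2 and 3 and -0.23, -0.04 and -0.15 on the KO arrays, while the median over all features stayed between -0.05 and 0.05. Over the 4427 features it was 0.14 on WT replicate 3 and -0.12 on KO replicate 1. Those features thus moved the same way as the 39 on these arrays, by smaller amounts. They are not matched to the 39 in brightness. Their mean levels were 4.37 to 4.60 per array, against 5.15 to 5.72 for the 39.

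**Figure D3:**
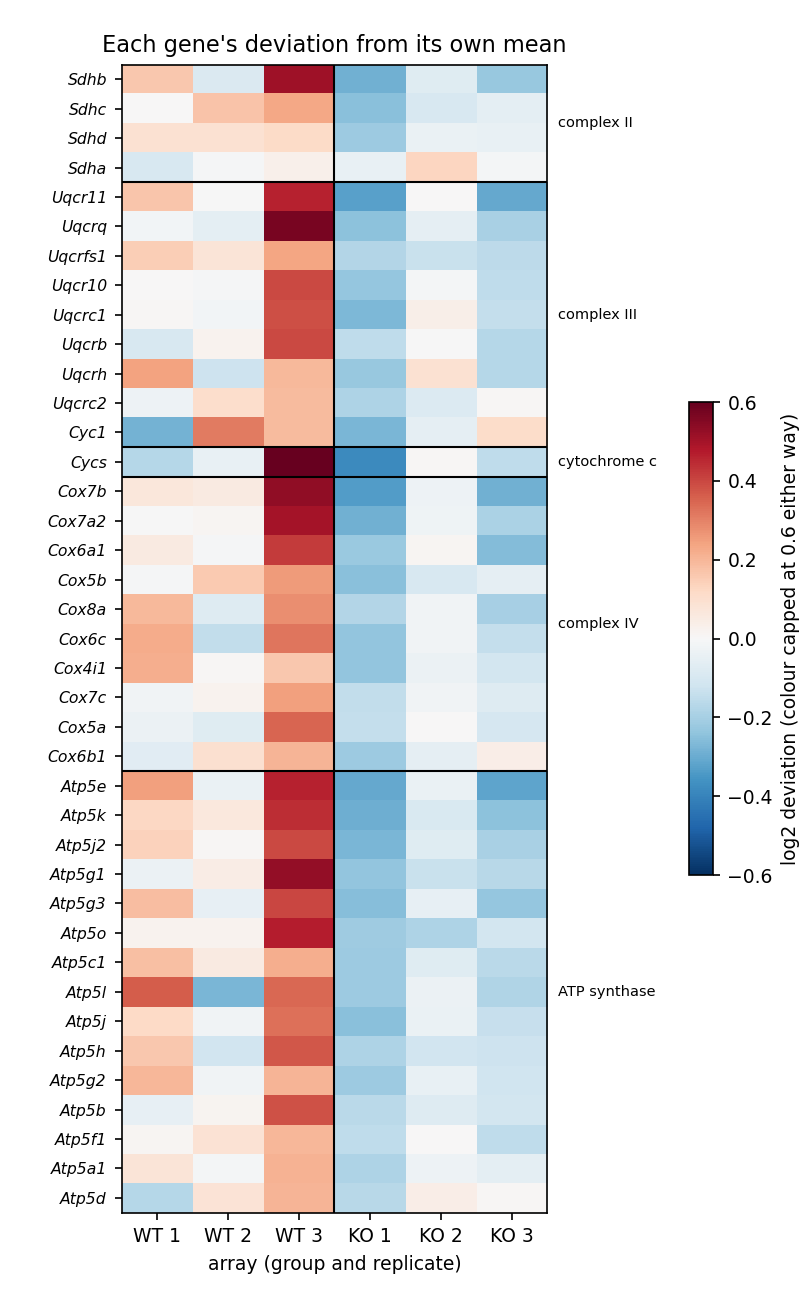
Deviation of each of the 39 genes (rows, by complex) from its own mean over the 6 arrays (columns), in log2 units, red above and blue below the mean. The column of WT replicate 3 is the darkest red, being the highest array for 34 genes, and KO replicate 1 is the lowest for 30, while Sdha differs from the rows around it.

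The excess of WT replicate 3 over the mean of the other WT arrays was positive for 39 of 39 genes, with a median of 0.297, against a median of -0.030 over all features and 45.9% of features above 0. It was largest for Cycs (0.842), Uqcrq (0.607) and Atp5g1 (0.524). The smallest excess was that of Sdhd (0.0248), Cox4i1 (0.0472) and Sdha (0.0818). WT values spread more than KO values for 37 of the 39 genes (69.7% of features), with a median SD of 0.226 in WT and 0.103 in KO. The array with the highest respiratory transcripts was the one with the high neutrophil, cell division and Schwann cell markers given above, and the part of those cells in the result was not tested. Nor was that of erythroid cells, whose sum was highest on KO replicate 1.

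**Figure D4:**
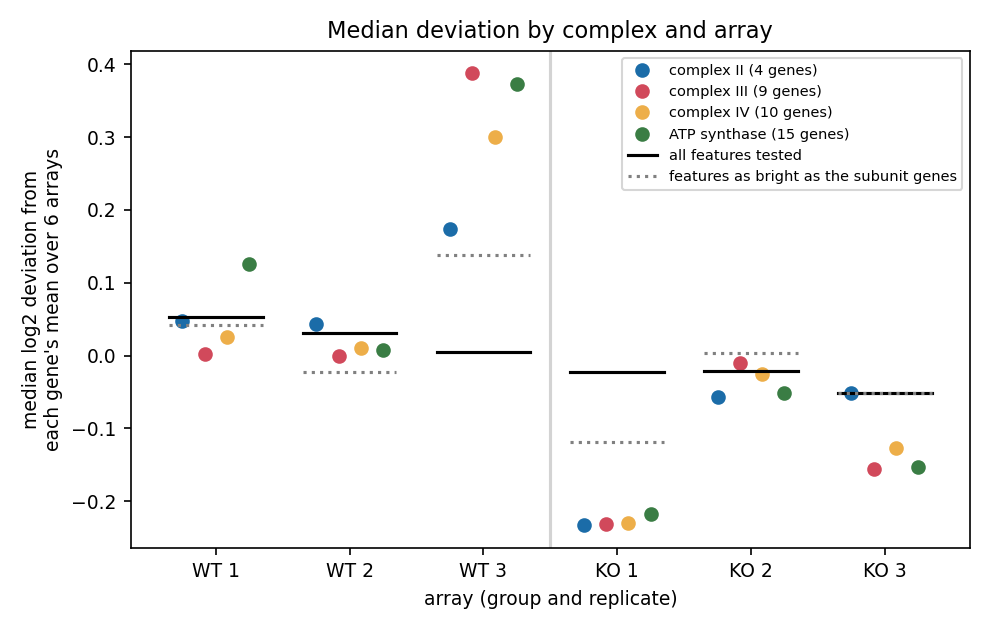
Median log2 deviation of the genes of each complex from their own means, by array (points), with the median of all features tested (solid bars) and of the 4427 features at least as bright as the dimmest subunit gene (dotted bars). On WT replicate 3 complexes III, IV and the ATP synthase stand at 0.39, 0.30 and 0.37 and complex II at 0.17, and on KO replicate 1 all 4 lie between -0.23 and -0.22.

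Without WT replicate 3 the genes lay nearer to all other features. The median of the 39 was -0.18 against -0.08 over all features, so that the distance from all features went from -0.19 to -0.10, and 37 of the 39 were below 0 (62.4% of features). At an unadjusted p under 0.05 limma then found 0 of the 39 (background 9.14%), in place of 7, and 0 at an adjusted p under 0.05 (0% of features). The 3 KO arrays were below both remaining WT arrays for 22 genes, against a background of 21%. Leaving WT replicate 3 out could not lower the count of 22 seen with all 6 arrays, so it does not test that count. By complex the medians without this array were -0.21 for complex II, -0.13 for complex III, -0.18 for complex IV and -0.19 for the ATP synthase. Without KO replicate 1 the 39 had a median of -0.21. Genes lower at an unadjusted p under 0.05 numbered 0 without KO replicate 1 or KO replicate 3, 4 without KO replicate 2, 6 without WT replicate 1 and 15 without WT replicate 2, where 1751, 1426, 1564, 2170 and 3445 of the 26887 features met the same rule.

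The values differed between the rows of the slide, which held different animals, so row and animal cannot be told apart. On slide row 1, which held WT replicates 1 and 3 and KO replicates 1 and 3, the median of the 39 was -0.41, against -0.07 over all features. On row 2, with WT replicate 2 and KO replicate 2 and no replicate, it was -0.03 against -0.04, and 17 of the 39 lay below the median of all features. With the row as a block the median was -0.27 and 1 gene had an unadjusted p under 0.05. The count over all features with this block is not given here. Scaling moved the sizes too: the distance of the 39 from all features was -0.19 with the 75th percentile and with median centring, -0.13 with quantile normalization, -0.11 with normexp and -0.10 in the authors' table. The median of all features itself lay at -0.08, 0.09, 0.01, -0.11 and -0.01 in these settings. The distances with the 75th percentile and with median centring are equal by construction, since each scaling subtracts a constant from every array.

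Medians of other lists of mitochondrial genes, described in the same fit, lay from -0.19 to 0.12 relative to the median of all features, and 0 genes of any list were called. The 36 subunits of complex I, the entry point for electrons from NADH, had a median of -0.27, with 35 below 0, 8 lower at an unadjusted p under 0.05 (8.92% of features) and 21 with every KO array below every WT array (13.5%). Without WT replicate 3 the complex I median went to -0.19 and 0 of its genes stayed under an unadjusted p of 0.05. Outside mitochondria, 34 cytosolic ribosomal protein genes had a median of -0.30, all below 0, and -0.26 without WT replicate 3. With quantile normalization the median of these 34 was -0.02 and in the authors' table -0.04, with 22 below 0 in both. The 36 mitochondrial ribosomal protein genes were nearer to all features, with a median of -0.13 and 26 below 0. In the citric acid cycle, 11 of 13 genes were below 0 with a median of -0.10. Idh3g, a subunit of isocitrate dehydrogenase, read -0.34 ± 0.14 (unadjusted p = 0.0431, adjusted p = 0.378) and Mdh2, malate dehydrogenase, -0.21 ± 0.13. Carriers and pores that move ADP, ATP and other metabolites had 6 of 6 below 0 (median -0.13), led by the ADP/ATP carrier Slc25a5 at -0.30 ± 0.16 and the pore Vdac3 at -0.22 ± 0.15. The direction of this list turned with the scaling: its median was 0.05 with quantile normalization, 0.03 with median centring and 0.02 in the authors' table, with 2 of 6 below 0 in each. Relative to all features, the citric acid cycle and the mitochondrial ribosomal proteins went from -0.03 and -0.06 to 0.04 and 0.02 with normexp. With median centring, where all features lay at 0.09, their own medians were 0.06 and 0.03, with 4 of 13 and 12 of 36 below 0. Both medians stayed below 0 with quantile normalization, with normexp and in the authors' table.

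Factors that build the complexes had medians on both sides of 0. For complex II, 3 of 4 were below 0 with a median of -0.05 (0.00013 with normexp, 0.12 with median centring), where Sdhaf1, which serves iron-sulphur insertion into Sdhb, read -0.09 ± 0.13 and Sdhaf2, which helps attach FAD to Sdha, -0.07 ± 0.12. For complex III, 2 of 5 were below 0 (median 0.03), with Uqcc2 at -0.16 ± 0.12 and Ttc19 at 0.20 ± 0.16. For complex IV, 12 of 18 were below 0 (median -0.11, and 0.06 with median centring), and the lowest p belonged to Cox17, a copper chaperone, at -0.40 ± 0.12 (unadjusted p = 0.0153, adjusted p = 0.331) and Cox10, which makes the precursor of haem A, at -0.38 ± 0.16. For the ATP synthase, 3 of 3 were below 0, with the assembly factor Atpaf2 at -0.25 ± 0.13 and the inhibitor Atpif1 at -0.31 ± 0.17. The remaining gene read -0.0024 ± 0.12. With normexp, quantile normalization, median centring and in the authors' table, 2 of 3 were below 0. Other isoforms and late-named subunits had 7 of 10 below 0 (median -0.12, and 0.04 with median centring), with Usmg5, a small ATP synthase subunit, at -0.35 ± 0.15 and the heart and muscle isoform Cox8b at 0.33 ± 0.19. Regulators of mitochondrial biogenesis had 4 of 11 below 0 (median 0.05, and -0.01 with normexp, where all features lay at -0.11). Gabpb1, a subunit of the GABP factor, read -0.23 ± 0.14. Tfam, which packages mitochondrial DNA and takes part in its transcription, read 0.20 ± 0.14.

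**Figure D5:**
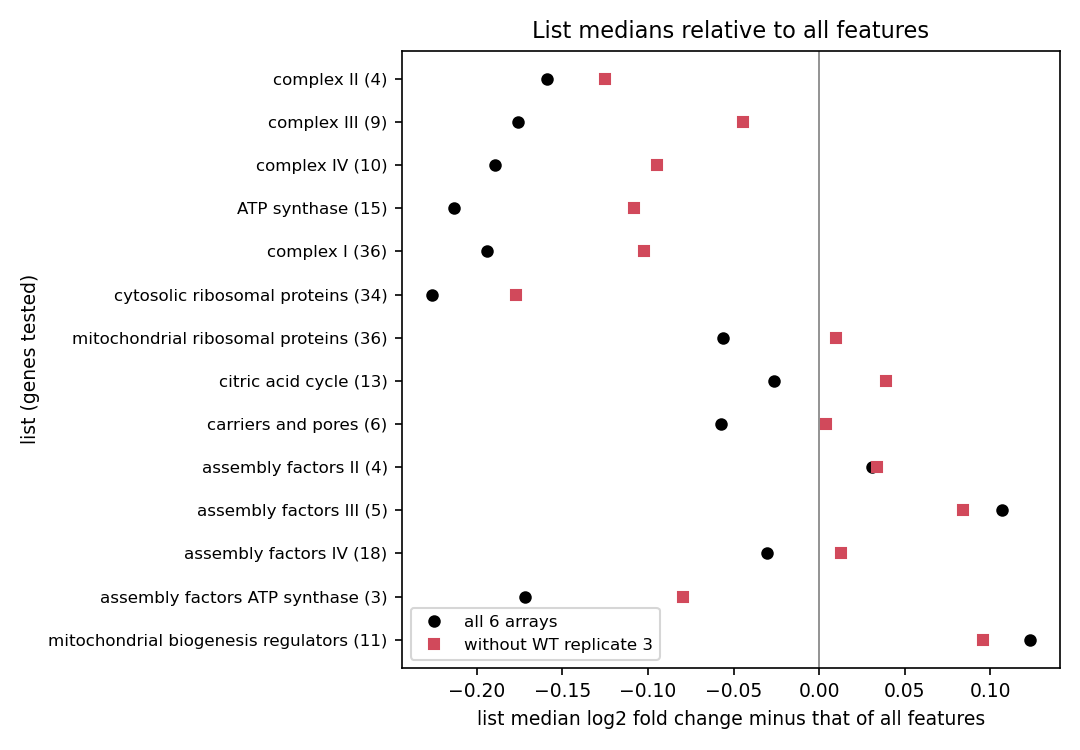
Median log2 fold change of each list minus that of all features tested, with all 6 arrays (circles) and without WT replicate 3 (squares), with the number of genes tested in brackets. Leaving out the array takes complex III from -0.18 to -0.04 and the ATP synthase from -0.21 to -0.11, whereas cytosolic ribosomal proteins go from -0.23 to -0.18.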

How the data were processed

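Per the labels, Cy3-labelled RNA was hybridised to 1-colour Agilent arrays, and per the file headers all 6 lay on 1 slide and were read by Feature Extraction 11.0.1.1. The deposited intensity values (gProcessedSignal) were background-subtracted by that program and not normalized between arrays. The authors' value table of deposited log2 values follows the log2 median spot brightness of each array (r at least 0.997 across spots), with column medians of 8.25 to 8.27. Limma is named in the submitters' processing notes, while the normalization and filter of this table are not stated in the sources used here. Control and outlier spots were left out, log2 intensity was averaged per probe, and the 75th percentile over all spots was taken off each array. The fit kept 36739 probes, those lying well above background on 3 or more arrays. The brightest per gene was tested, KO against WT, with limma 3.58.1 in R 4.3.3 (lmFit and eBayes, two-sided, Benjamini-Hochberg over 26887 features, calls under 0.05), after a check on simulated data. Whether probes also bind near-identical gene copies was not tested. RefSeq accessions gave 27656 probes a symbol through the GRCm38.p6 table, which served for names and promoter windows only.

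The members, the other gene and marker lists and the alternatives were chosen with earlier results of these data known, and the count of genes without overlap between groups under each alternative and the medians of other lists under each scaling were added later. Per-array values were printed for all complex II genes, the 3 of smallest p and the one of highest value in complexes III and IV and the ATP synthase, Cycs and the c ring. From other lists the 2 genes of smallest p were named, except that comparison lists are given by counts. Every further member is given by its value. The precision of all values is limited by the 3 arrays per group. Same-numbered WT and KO arrays did not deviate together (r of 0.15, -0.18 and -0.08 across features, which are not independent replicates), and the labels name no pairing. The level of 1 marker gene is not reported here.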

Additional observations from a re-analysis of the deposited data

How the results depend on the processing

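By limma, no alternative called any of the 39 genes at an adjusted p under 0.05. Over all features 0 were called, and 24 with normexp, 16 with median centring, 27 in the authors' table, 11 with a filter on all 6 arrays, 27 with a variance trend and robust fitting, and 0 to 1 with an array left out. With the replicate number as a block, 0 features were called and the median of the 39 genes stayed at -0.27. In that fit 1 gene in place of 7 had an unadjusted p under 0.05, where the count over all features is not given. Genes lower at that p numbered 0 with quantile normalization (1366 of 26887 features) and 0 with median centring (890). The number was 8 with normexp (2346) and 5 in the authors' table (1395 of 20832 features). It was 14 with a variance trend and robust fitting, where the count over all features is not given. The median of all 39 was -0.12 with quantile normalization, -0.11 with median centring, -0.10 in the authors' table and -0.026 on slide row 2 alone, and -0.35 to -0.18 with an array left out. That of complex II was -0.074 with median centring, -0.14 in the authors' table and -0.059 on row 2 (-0.27 to -0.18 with an array left out). Complex III gave -0.0028 on row 2 (-0.32 to -0.13). Complex IV gave -0.043 with quantile normalization, -0.10 with median centring, -0.087 in the authors' table and -0.040 on row 2 (-0.34 to -0.18). The ATP synthase gave -0.12 with quantile normalization, -0.13 with median centring and -0.039 on row 2 (-0.41 to -0.19). The count below the median of all features was 17 on row 2 and 33 to 38 with an array left out. Genes with every KO array below every WT array numbered 14 with normexp (background 13.2%), 10 with quantile normalization (9.08%), 0 with median centring (3.77%) and 10 in the authors' table (10.5%), and 22 to 31 with an array left out (17% to 25.1% of features). Leaving out an array cannot lower this count, so these fits do not test it. Among the alternatives run, 28 single-gene values changed sign, all to within 1 standard error of 0 where an error could be had. With quantile normalization these were Atp5a1 (0.039), Atp5b (0.016), Atp5d (0.037), Atp5g2 (0.0059), Cox4i1 (0.019), Cox8a (0.0071) and Uqcrh (0.065). With median centring they were Atp5d (0.084), Cox5a (0.0010), Cox6b1 (0.0074) and Cyc1 (0.016). In the authors' table they were Atp5a1 (0.017), Atp5d (0.050) and Uqcrh (0.013), and with normexp Atp5d (0.0033). Without WT replicate 3 Atp5d read 0.0053, and without KO replicate 2 Sdha read -0.0062, the lowest of its values with an array left out (highest 0.0807). On row 2, with 1 array per group and no test, they were Atp5l (0.24), Cox5a (0.071), Cox6a1 (0.019), Cox6c (0.13), Cox8a (0.053), Cycs (0.052), Sdhb (0.015), Uqcr11 (0.0055), Uqcrc1 (0.054), Uqcrh (0.22) and Uqcrq (0.0057). The cause of these changes was not tested.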
